A study of Mus musculus with 2 samples.

Results

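The genes described here encode proteins of the lipid droplet surface: the perilipins Plin1, Plin2, Plin3 and Plin4, the droplet fusion proteins Cidea and Cidec, and Bscl2 (seipin), which sits where droplets form. The members were chosen by name, and every probe set (a group of short oligonucleotides that reads part of 1 transcript) annotated to 1 of them was taken. Of the 7 genes, 6 were read, by 7 of the 22690 probe sets, among 12393 genes in all. Plin1 was not analysed here, because no probe set was annotated to it. RNA came from mammary tumors of female FVB wild-type mice that had received 15 mg medroxyprogesterone acetate, a progestin, at 5 weeks of age and then 4 weekly gavages of 1 mg DMBA, a carcinogen. The control group ate standard chow and the other group ate chow with 0.1% GW9662, an irreversible antagonist of the nuclear receptor PPARγ, from the day after the last DMBA dose. Each diet was read on 1 Affymetrix array of RNA pooled from 5 mice. With 1 array per diet there is no replicate error and no test, so each difference is given by its size in these 2 pools.

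A lipid droplet is a core of triglyceride and sterol ester under a single layer of phospholipid, and the proteins on that layer decide how fast the fat is released or stored. Fat cells hold 1 very large droplet coated by Plin1, Plin4 covers their newly made droplets, and Cidec, with Cidea in brown fat, passes lipid from small droplets to larger ones. Plin2 and Plin3 coat the small droplets of most cell types, and Plin2 also covers the fat that milk-producing epithelium secretes. Seipin is a protein of the endoplasmic reticulum that is needed for droplets to form and for fat cells to develop.

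The promoters of Cidec and Plin3 are shown because these genes lay far apart in the comparison of diets. The sequences are from RefSeq for the mouse assembly GRCm38.p6, on the minus strand, and cover the 250 bases before the start of the transcript. The Cidec window printed is that of the outer of its 2 starts, at chr6:113435761-113436010, and Plin3 is at chr17:56290512-56290761. The window of the inner Cidec start is not printed and did hold a motif match, given below.
Cidec: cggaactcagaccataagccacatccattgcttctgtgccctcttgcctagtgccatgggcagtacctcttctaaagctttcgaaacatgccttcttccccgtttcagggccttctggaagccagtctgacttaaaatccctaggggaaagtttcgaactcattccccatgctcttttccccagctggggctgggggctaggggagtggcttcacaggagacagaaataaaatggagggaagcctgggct
Plin3: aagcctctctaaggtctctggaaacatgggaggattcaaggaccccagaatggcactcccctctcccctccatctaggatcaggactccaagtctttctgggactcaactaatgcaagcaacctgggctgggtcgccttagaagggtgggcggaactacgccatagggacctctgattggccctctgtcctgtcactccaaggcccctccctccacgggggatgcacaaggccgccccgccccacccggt
Both are printed without capitals because none of the 5 motifs searched, on both strands, was in them. PPARγ binds as a dimer with RXR to a repeat of AGGTCA with 1 base between the copies, AGGTCANAGGTCA, which 0.0335% of 32851 promoter windows of this length held. With 1 base left free in each copy, AGGNCANAGGNCA, the share was 0.338%. Neither form was in any of the 9 windows searched for 6 members, Plin1 included and Cidea not. So few windows of any gene hold either form that this absence does not show that PPARγ sites are missing. A single AGGTCA, in 14% of all windows, was found in reverse as TGACCT 218 bases before the start of Plin2 and as AGGTCA 202 bases before 1 of the Bscl2 starts. TTGCNNAA, a motif of C/EBP factors in 9.56% of windows, was found as TTGCTCAA 198 bases before the inner of 2 Cidec starts. It was found 2 times upstream of Plin1, as TTGCCTAA at 187 and TTGCCCAA at 58 bases. TATAAA, in 12.4% of all windows, was in none of the members' windows. These are matches of letters in short windows and show no binding.

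Coats and fusion proteins of fat cells were far lower on the GW9662 array, while the coats found in most cells differed less. Plin4 kept 4.47% of its control signal, Cidec at most 5.13% and Cidea at most 14.1%, whereas Plin2 kept 40.9% and Plin3 82.6%. The limits for Cidec and Cidea put 100 in place of their GW9662 signals, which were below it. At the thresholds of the study's methods, which ask for 300 or more on either array and a 3-fold difference, 3 of the 6 members read were lower and 0 were higher. Of the 6053 genes that reached that signal, 2.68% were lower by as much. In bulk tumor RNA, fewer cells of a type and less RNA per cell cannot be told apart.

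Cidec, which fuses droplets in white fat cells, gave 1949.5 in the control pool and 44.2 in the GW9662 pool. Signals under 100 were not ordered here, so the gene was at least 19.5-fold lower. Plin4, a perilipin with a long repeat region that coats nascent droplets in fat cells, had 2357.6 and 105.3 and was 22.4-fold lower. Since the Cidec fold is a bound, no order was set between them. Cidea, the fusion protein of brown fat that is also made by milk-producing epithelium, had 710.2 and 45.3 and was at least 7.10-fold lower. All 3 had a bright control signal and lay near or under 100 after GW9662.

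Plin2, the coat that follows the amount of stored fat in most cells, gave 5064.9 in the control pool and 2071.9 in the GW9662 pool, a log2 ratio of -1.29. It was 2.44-fold lower, under the 3-fold threshold, and passed at 2-fold, as did 4 of the 6 members. The paper's list of lowered metabolic genes, cut at 2.5-fold, does hold Plin2, with signals other than those read here. At 2-fold, 4.68% of the 6053 genes were lower. Plin3, which moves from the cytosol to new droplets, had 760.6 and 628.3, a log2 ratio of -0.28 and the smallest difference of the members. The log2 ratios of different probe sets of 1 gene varied with an SD of 0.36 over 2639 genes, so the Plin3 difference is within the spread between probe sets and the Plin2 difference is beyond it. That spread holds no variation between mice or tumors.

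**Figure D1:**
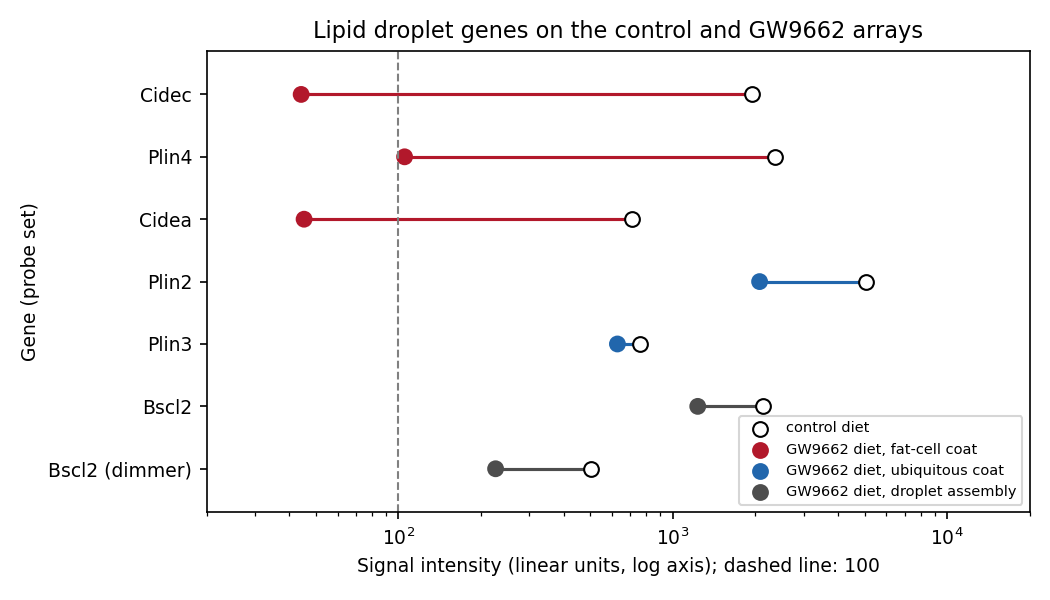
Signal intensity on a log x axis for each probe set of the 6 genes read, with the control diet as open circles and the GW9662 diet as filled circles joined by a line. The dashed line is the signal of 100. Cidec, Plin4 and Cidea end at 44.2, 105.3 and 45.3, while Plin2 and Plin3 stay at 2071.9 and 628.3.

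Bscl2 lay between Plin2 and Plin3 in log2 ratio, and its 2 probe sets had the same direction. The brighter gave 2129.0 with the control diet and 1232.9 with GW9662, 1.73-fold lower, and the dimmer had 501.5 and 226.0, 2.22-fold lower. The log2 ratios were -0.79 and -1.15. The other 5 genes were each read by 1 probe set, so they have no second reading within the array.

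The groups of coats did not overlap in log2 ratio. The median of the 3 fat-cell genes was -4.48 and that of Plin2 and Plin3 was -0.78, a difference of -3.70, or -3.50 when signals below 100 were set to 100. The nearest pair across the groups was Cidea and Plin2, and the fold of Cidea was still at least 2.91 times that of Plin2. Plin4 against Plin2, both measured on both arrays, differed by 9.16 times in fold, and Plin4 against Plin3 by 18.5 times. Both ratios are rough, because the Plin4 signal on the GW9662 array, 105.3, was barely above the floor of 100. Plin2 and Plin3 differed from each other by 2.02 times. The groups were set from known expression in tissues, but with earlier results of these data known. They hold 3 and 2 genes, so the contrast is a description and the lack of overlap is no independent finding.

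Among the 5993 genes that reached 100 on both arrays and 300 on either, 149 had a log2 ratio as low as Plin2 or lower, Plin2 included. For Bscl2 the number was 329 and for Plin3 1283. Genes below 100 on the GW9662 array, Cidec and Cidea among them, are not in this count, so it gives no place among all genes. The order of the 4 members measured on both arrays was Plin4, Plin2, Bscl2 and Plin3 from most to least reduced. Neighbours Plin2 and Bscl2 differed by -0.50 in log2 ratio, Plin2 minus Bscl2, at the brightest Bscl2 probe set, and the dimmer Bscl2 probe set came within the probe set spread of Plin2.

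**Figure D2:**
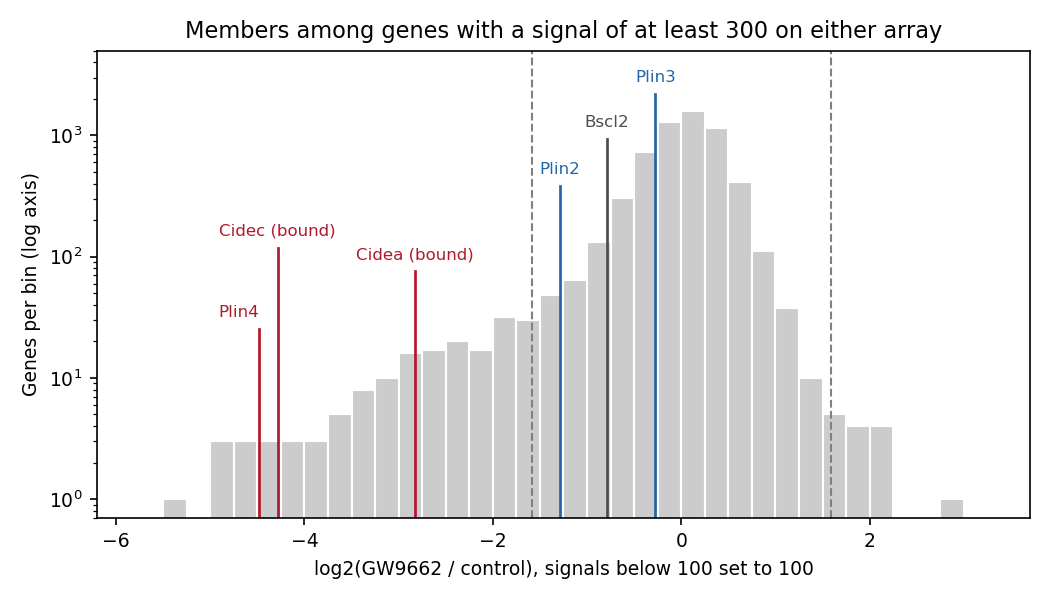
Histogram of log2(GW9662 / control) over the 6053 genes that reached 300 on either array, with signals below 100 set to 100 and gene counts on a log y axis. Dashed lines mark 3-fold differences, and labelled lines mark the members. Plin4, Cidec and Cidea lie left of the 3-fold line, and for Cidec and Cidea the position is a bound.

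The genes nearest in log2 ratio were sought among those of at least 100 on both arrays and 1000 on either. Likeness over 2 arrays is only a like ratio. For Plin4 (log2 ratio -4.48) the nearest of 2626 genes were Adipoq, which encodes the fat cell hormone adiponectin (-4.53), the fatty acid transporter Cd36 (-4.57) and the lipogenic regulator Thrsp (-4.38). Only 2 genes lay within 0.1 of Plin4. Genes below 100 on the GW9662 array, Cidec and Lep among them, could not enter this comparison. At so low a ratio only genes with a bright control signal could, so the small number partly follows from the limits set. For Plin2, 14 genes lay within 0.1, and the nearest were the G protein subunit Gnai1, the transporter Abca8a and the acid phosphatase Acp5. For Bscl2, 51 genes did, with Nrp1, Isca1 and the caveolin Cav1 nearest. For Plin3, 330 of 2627 genes did, so that Cnbp, Tob2 and Nrbf2 are 3 of many.

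Other members of the same families were too dim to compare. Plin5, the perilipin of muscle, heart and brown fat, had signals of 55.0 and 18.8, and Cideb, the family member of liver and gut, had 11.3 and 39.3. Both were below 100 on both arrays, so no fold is given. Plin4 and Plin5 are neighbours on the mouse chromosome with 0 protein-coding genes between them in GRCm38.p6.

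Enzymes that release fat from the droplet were lower with the fat-cell coats. All 6 genes of this group were measured and were dimmer after GW9662, 5 by 3-fold or more. Their median log2 ratio was -2.59, against 0.03 over the 8009 genes of mean signal 100 or more. Pnpla2 (ATGL), which removes the first fatty acid from triglyceride, had 2564.6 and 530.4, 4.84-fold lower. Lipe, the hormone-sensitive lipase, had 819.8 and 63.3, at least 8.20-fold lower. G0s2, the inhibitor of Pnpla2, was 7.31-fold lower (2665.2 and 364.4). Abhd5, the coactivator of Pnpla2 that Plin1 holds on the droplet, was the least reduced, with 678.2 and 322.8, 2.10-fold lower. Enzyme, inhibitor and coactivator were thus all lower, by different amounts. Mgll, which cleaves the last fatty acid, was 4.96-fold lower and Pnpla3, a lipase relative of lipogenic tissue, at least 8.65-fold lower.

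The measured enzymes of triglyceride synthesis were also lower, with a smaller reduction at the median than the lipolysis genes. The folds of the groups overlapped. Of 8 genes 5 were measured, all dimmer after GW9662, and the median was -1.51 in log2 ratio. A reduction of 3-fold or more was seen in 2, against 2.68% of the 6053 genes that reached 300 on either array. Agpat2, Acsl1 and Acsl3 were not analysed here. In the paper's own list of lowered genes Acsl1 has a larger fold than Dgat2, so the median depends on which genes were read. Dgat2, which adds the last fatty acid and can act on the droplet itself, had 3797.6 and 454.4, 8.36-fold lower. Dgat1, the other enzyme of that step, which acts in the endoplasmic reticulum, had 889.3 and 362.7, 2.45-fold lower, so the pair differed in the size of the reduction. Lpin1, a phosphatidate phosphatase, was 4.81-fold lower and Gpam, the mitochondrial acyltransferase of the first step, 2.84-fold lower. Gpat4, the acyltransferase of the endoplasmic reticulum, had 279.2 and 146.8, 1.90-fold lower.

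A mixed list of other droplet genes differed less between the diets, at the median, than the lipolysis and synthesis enzymes. It covers droplet formation and other droplet proteins, and includes genes of few tissues such as Plin5 and Cideb, which were too dim to be measured. Of 9 genes measured out of 17, 7 were lower and 2 were higher, with a median log2 ratio of -0.44. Against 2.68% of the 6053 genes that reached 300 on either array, 1 gene of the list was at least 3-fold lower. That gene was Mettl7a1, a methyltransferase-like droplet protein, with 1450.4 and 282.8, 5.13-fold lower. Ldah, a droplet hydrolase, had 773.1 and 430.9, 1.79-fold lower, and Pcyt1a, which makes phosphatidylcholine for growing droplets, had 329.5 and 182.4, 1.81-fold lower. Nsdhl, a sterol synthesis enzyme, had 631.9 and 439.5, 1.44-fold lower. These 3 differed by less than 2-fold at these probe sets. A dimmer Ldah probe set had a log2 ratio of -1.39. Rab18, a small GTPase of droplet contacts, had 2048.4 and 1512.5, and Hsd17b11, a dehydrogenase anchored in the droplet surface, had 2595.9 and 2129.1. Aup1, a droplet protein of protein degradation, had 717.8 and 646.2. Hilpda, an inhibitor of Pnpla2 induced by low oxygen, was 1.39-fold higher (298.7 and 416.4). The microtubule-severing protein Spast had 656.1 and 720.1 at its brightest probe set but 362.9 and 204.7 at the other, so its direction depended on the probe set.

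**Figure D3:**
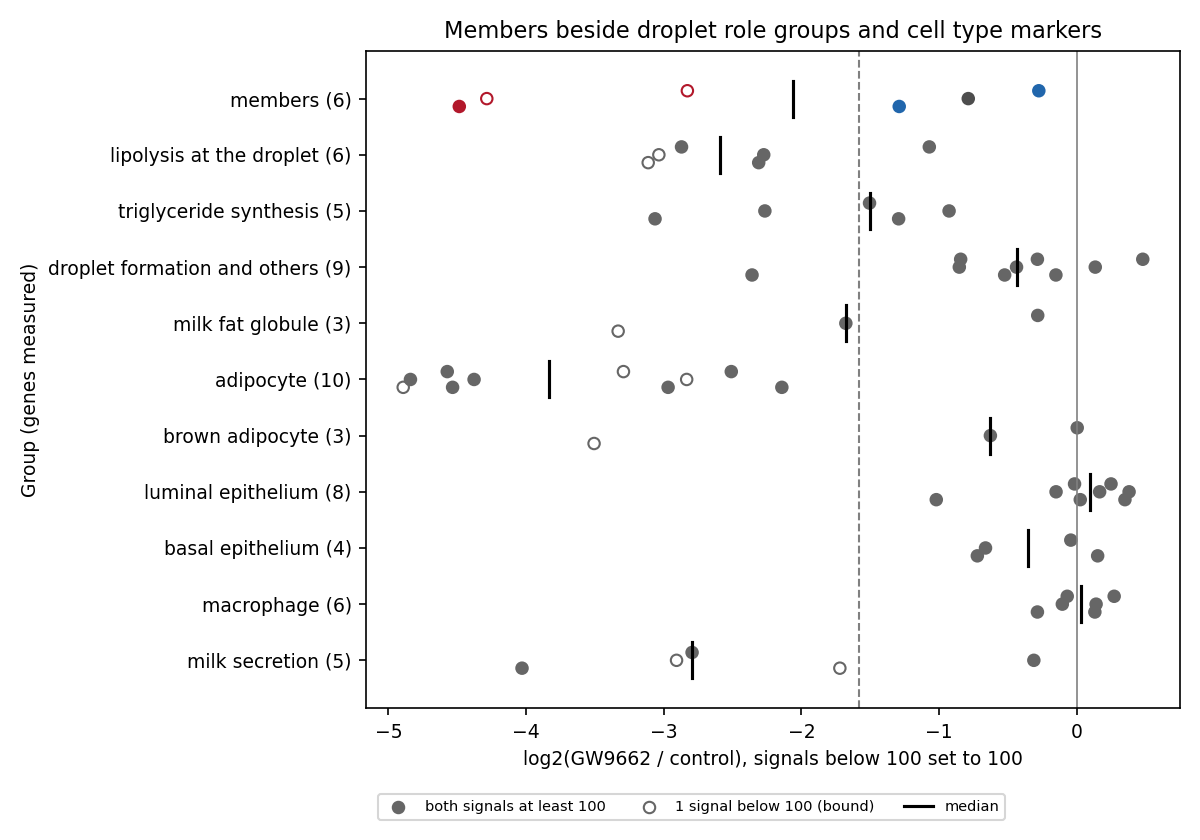
Log2(GW9662 / control) with signals below 100 set to 100, 1 point per gene, for the members (red, fat-cell coats; blue, Plin2 and Plin3; dark gray, Bscl2) and for the role and marker groups in gray. Black bars are medians, open points are bounds and the dashed line is 3-fold lower. Plin4 lies within the range of the adipocyte markers, Cidec and Cidea are drawn at their bounds, and Plin2, Bscl2 and Plin3 lie to the right of that range.

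Markers of fat cells were lower, as were the fat-cell coats. This list was written with earlier results of these data known, and the paper lists several of its genes as lowered. Its count is therefore no independent support. All 10 measured adipocyte markers were at least 3-fold lower, against 2.68% of the 6053 genes that reached 300 on either array. None was at 0, and their summed signal was 64958.5 with the control diet and 7687.5 with GW9662, 11.8% of control. Fabp4 and Car3, with control signals of 13670.0 and 13263.5 near the array maximum of 14438.0, weigh heavily in that sum, and without them, a choice made after seeing the data, the other 8 markers kept 5.95%. With signals below 100 set to 100, the log2 ratios of the 10 markers ran from -4.89 to -2.14, and Plin4, at -4.48, lay inside that range. Cidec and Cidea have only bounds, -4.28 or lower and -2.83 or lower. With signals as deposited, Cidec was at -5.46 and the lowest marker, Lep, at -5.41, both from GW9662 signals below 100. Plin2, Bscl2 and Plin3 were all less reduced than each of the 10 markers. Fabp4, the fatty acid binding protein of fat cells, was at -2.14 as read and at -2.76 at a dimmer probe set (6320.1 and 933.6). Car3 was at -2.51 as read and at -4.78 at its dimmer probe set (10176.9 and 371.1). Another, still dimmer Fabp4 probe set had 374.9 and 18.0. Lpl was at -2.97 as read and at -4.12 at its dimmer probe set (2956.7 and 169.9). The order of Fabp4, Car3 and Lpl, and the less reduced end of the marker range, thus depend on the probe set. The part of a lower fat-cell share in the lower coat signals was not tested.

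Markers of brown fat gave no single picture beside Cidea. Of 7 genes, 3 had a mean signal of 100 or more, with summed signals of 1548.2 and 339.8. Cox8b, which belongs to the respiratory chain of brown fat and muscle fibers, had 1136.0 and 9.1, at least 11.4-fold lower. Cox7a1 had 232.2 and 150.3, and the thyroid hormone deiodinase Dio2 had 180.0 and 180.4. Ucp1, the uncoupling protein that defines brown fat, was dim on both arrays (76.2 and 1.9), as was Zic1 (8.4 and 7.4).

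Milk-producing epithelium also uses Cidea and Plin2, and its secretion genes were lower. Of 5 milk protein genes, 4 were at least 3-fold lower, among them the caseins Csn1s1 (9944.5 and 609.1) and Csn2 (10570.2 and 1524.0), while Csn3 was 1.24-fold lower (8575.0 and 6908.0). Their summed signal was 30169.3 and 9084.2, and none was at 0. Of the proteins that wrap the milk fat globule, Btn1a1, the butyrophilin that binds the droplet coat, had 1006.3 and 98.2, at least 10.1-fold lower. Its partner Xdh was 3.20-fold lower (1013.5 and 316.9), and Mfge8, also made by macrophages and vessels, had 7473.2 and 6139.6. The part of milk secretion in the lower Cidea and Plin2 signals was not tested.

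Most markers of the epithelium as a whole and of macrophages, both of which hold Plin2 and Plin3, differed by less than 2-fold. The 8 luminal markers had a median log2 ratio of 0.10, with Krt8 (9496.4 and 9664.7) and Krt18 (10018.0 and 9025.3) bright on both arrays. Elf5, the transcription factor of secretory cells, was the exception, 2.03-fold lower (4138.4 and 2040.0). The 4 basal markers had a median of -0.35 and the 6 macrophage markers 0.03 (-0.04 after quantile normalization), with 0 genes of either group past 2-fold. Basal Krt5 and Krt14 were at -0.66 and -0.72, while Acta2 and Trp63 were at -0.04 and 0.15. Csf1r of macrophages was at -0.07 as read, but at -0.60 and -0.67 at dimmer probe sets. Plin2, at -1.29, was lower than every marker of the luminal, basal and macrophage groups, and Plin3, at -0.28, lay within the range of each.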

How the data were processed

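For each array the authors deposited intensities on a linear scale, 1 for every probe set, generated with Affymetrix GeneChip Operating Software. How probe pairs were summarised and arrays scaled is not given in the sources used here. A 2% trimmed mean of 500.2 was found on both arrays, as after scaling to a common target, and no further scaling was applied. Gene names came from the platform annotation, with symbols updated by gene identifier from RefSeq (GRCm38.p6). A gene with several probe sets was read at the one of highest mean signal. Probe sets with several genes (691) or no gene named (1555) were left out. Folds used 100 in place of a dimmer signal below it, and none was given with both below. Before log2, a signal of 0 was set to 0.1. Role and marker groups were written from general knowledge, and a gene needed a mean signal of 100. The text names all members, any measured role gene, up to 4 brightest and 4 most different genes per marker group, and the 3 genes nearest each member in ratio. Members and lists were chosen with earlier results of these data known, so their counts and medians are descriptions. Alternatives covered scaling, floor, probe set, fold and signal minimum. Calculations ran in Python 3.11.15 with pandas 2.3.3 and numpy 2.4.6, and plots in matplotlib 3.10.9.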

Additional observations from a re-analysis of the deposited data

How the results depend on the processing

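With 1 array per diet no array could be left out and no paired analysis was possible because there are no replicates. Under 9 alternative settings, 48 recomputed values for the members, their count and the gap between the groups of coats stayed within the spread between probe sets or, for counts, within 1.5 times, and 3 moved. With signals below 100 set to 100, the log2 ratio of Cidec was -4.28 and that of Cidea -2.83, since both GW9662 signals are below that floor. At its dimmer probe set Bscl2 was at -1.15. No direction changed among these. Many of the 48 values could not move, so the tally is a weak check. Members with 1 probe set have no other to choose, and the floors leave members of 100 or more on both arrays unchanged. Centring shifted each log2 ratio by only 0.0094 and left the gap as it was. Of the role and marker groups, 145 values stayed and 5 moved, under limits of the same kind. The sign changed only for the macrophage median, which was 0.03 as read and -0.04 after quantile normalization. At 2-fold, 4 triglyceride synthesis genes were lower in place of 2. With the floor at 100, the adipocyte median was -3.83 and the milk protein median -2.79. The precision of every value is limited by the 2 arrays, and signals below 100 have no order.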
